A study of Mus musculus with 4 samples.

Results

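The Sonic hedgehog pathway was described through 9 genes, Shh, Ptch1, Hhip, Smo, Gli1, Gli2, Gli3, Mycn and Ccnd1 (SHH, PTCH1, HHIP, SMO, GLI1, GLI2, GLI3, MYCN and CCND1 in the table), in the anterior and posterior lobes of the mouse cerebellum. Its members were all probes of the array whose target symbol in the deposited table is one of these 9 genes, and this gave 17 probes of 45281, for 9 of 30854 symbols. RNA was taken from dissected lobes of untreated Swiss mice at postnatal day 7, with 2 samples of the anterior lobe and 2 of the posterior lobe, each on 1 Illumina MouseWG-6 v2.0 bead array. The comparison of the lobes addressed which genes differ between the anterior and the posterior cerebellum. The labels name no genetic modification, and they do not say how many animals a sample holds or whether the replicates came from separate animals, so the p-values below measure only the spread between these samples, which may be technical.

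In the developing cerebellum, Shh is secreted by Purkinje cells and drives the division of granule cell progenitors in the external granule layer. Without ligand, the receptor Ptch1 holds the membrane protein Smo inactive. When Shh binds Ptch1 this hold is lifted, Smo accumulates in the primary cilium, and the zinc finger factors Gli1, Gli2 and Gli3 change the transcription of target genes, among them Gli1, Ptch1, Hhip, Mycn and Ccnd1.

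The whole lobe was measured, not sorted progenitors, so each value sums over all cell types of the lobe, and fewer cells of a type and less RNA per cell cannot be told apart. The list of granule progenitor markers was checked for the label of these cells. Zic1, a transcription factor of granule cells, had an intensity of 10305.6 and 8311.3 in anterior replicates 1 and 2, and of 10698.0 and 10288.2 in posterior replicates 1 and 2. Barhl1, another gene of the list, read 6378.3 and 4783.3 in the anterior samples and 3877.4 and 5181.6 in the posterior samples. It had the only tested probe of the list with a lower posterior mean after normalization (log2 difference -0.30, limma adjusted p = 0.530). Atoh1, the factor that defines granule progenitors, has 1 probe, which read 64.7 to 75.2 and was not detected on any of the 4 arrays. The progenitor state of the measured tissue therefore rests on markers that other cells also hold.

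Binding of Gli factors to DNA has been described at a 9-base consensus, GACCACCCA, which was searched on both strands of the RefSeq promoter windows (GRCm38.p6, 250 bases before to 50 bases after each gene's start). The table held such a window for 6 members, Gli2, Smo, Hhip, Mycn, Gli3 and Ptch1. None of the 6 windows held the 9 bases, which were found in 83 of all 32851 windows (0.253%). The central 7 bases, ACCACCC, a part of the same consensus, were found in 1514 windows (4.61%) and in 1 of the 6 members, Gli2. The match is shown with its flanks because it is the only one in the windows of the members. It lies 205 to 199 bases before the start of Gli2. The printed stretch, with 10 flanking bases on each side, is chr1:119053808-119053834 on the minus strand. The capitals mark the reverse complement of the 7 bases.
Gli2: tccccctccaGGGTGGTgtccccccac
A match of letters is a description and does not show that a factor binds there.

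Of the 17 member probes, 14 probes of 7 genes were detected on 2 or more of the 4 arrays and were tested together with all 21726 such probes. A probe counts as detected where fewer than 5% of the negative control probes of the array shine as brightly, which is a detection p under 0.05. Among these 14 probes 12 had a difference under 0.3 on the log2 scale in size, a share close to the 88.9% of all tested probes, and several of their intervals reach well past that size. The study's criterion asks for a change of more than 1.2-fold and a p, not adjusted, below 0.05. Both member probes past it belong to Smo, and both were lower in the posterior lobe. Of all tested probes 8.29% met this criterion and 5% met it with the posterior lobe lower. No member probe passed an adjusted p of 0.05 in limma (Benjamini-Hochberg over all tested probes), which 0.106% of all tested probes passed, and 2 member probes, again those of Smo, had an unadjusted p under 0.05, as did 10.1% of all. With 2 arrays per lobe an exact permutation test, two-sided, has a smallest possible p of 0.33, so the fit across all probes was used. The median difference, posterior minus anterior, was 0.0041 on the log2 scale over the 14 probes and 0.0023 over all tested probes, with 7 member probes higher and 7 lower.

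**Figure D1:**
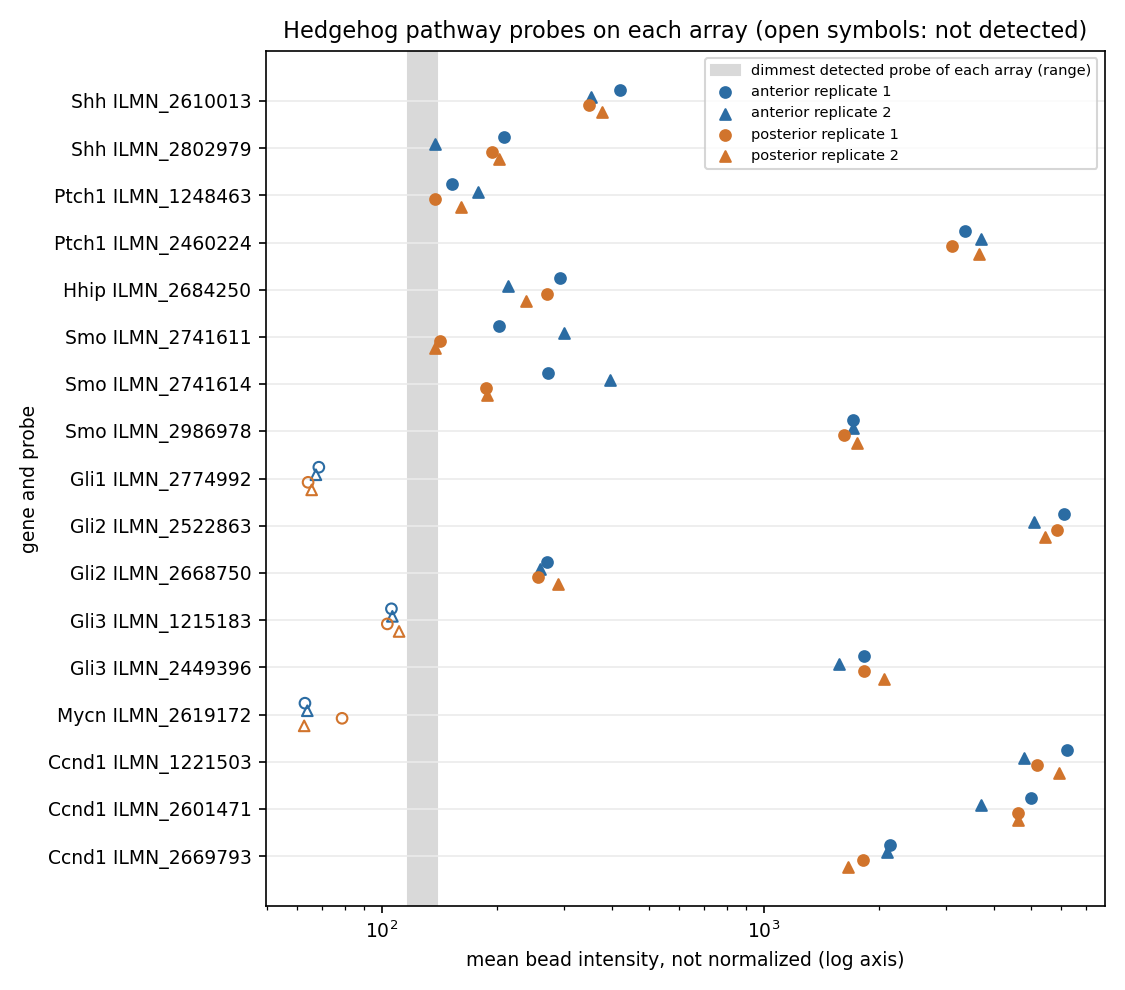
Intensity of each of the 17 member probes on each of the 4 arrays as deposited, on a log axis, with the arrays of the anterior and posterior lobes in separate colours, open symbols for values not detected, and a grey band over the dimmest detected intensity of the 4 arrays (116.9 to 139.8). The 4 arrays of most probes lie close together, while the posterior values of Smo probes ILMN_2741611 and ILMN_2741614 (138.2 to 188.2) lie below the anterior ones (203.1 to 395.4).

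The ligand Shh was measured by 2 probes. Probe ILMN_2610013 had an intensity of 419.9 and 352.9 in anterior replicates 1 and 2, and of 349.8 and 377.0 in posterior replicates 1 and 2. After normalization the posterior values lay just below the anterior ones, with a difference of -0.07 on the log2 scale (SE 0.12, 95% confidence interval -0.36 to 0.21, limma adjusted p = 0.869). Probe ILMN_2802979 read 209.7 and 137.8 in the anterior samples, and 194.1 and 202.8 in the posterior samples. Here anterior replicate 2 was the lowest, and the normalized posterior values lay above both anterior ones by a mean of 0.21 on the log2 scale (SE 0.14, interval -0.14 to 0.55, limma adjusted p = 0.652). The 2 Shh probes thus took opposite signs, and neither met the criterion. The difference of ILMN_2802979 was 0.038 without anterior replicate 2 and 0.369 without anterior replicate 1, where it met the criterion (limma unadjusted p = 0.0191, adjusted p = 0.104).

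Ptch1, the receptor that holds Smo inactive and is itself a target of the pathway, was measured by 2 probes. Probe ILMN_2460224 read 3358.4 and 3712.2 in the anterior samples and 3106.0 and 3666.4 in the posterior samples. The groups overlapped, and the difference of -0.06 on the log2 scale had an interval of -0.39 to 0.27 (limma adjusted p = 0.912). Probe ILMN_1248463 was dim, at 152.4 and 179.1 in the anterior samples and 137.9 and 161.3 in the posterior samples. Its groups overlapped too, with a difference of -0.18 (SE 0.18, interval -0.62 to 0.26, limma adjusted p = 0.765). It was -0.41 without anterior replicate 1, where it met the criterion (limma unadjusted p = 0.0141, adjusted p = 0.0857), and turned to 0.060 without anterior replicate 2. Hhip, which binds the ligand at the cell surface and is another target, had 1 probe, ILMN_2684250, at 292.3 and 214.1 in the anterior samples and 270.9 and 239.5 in the posterior samples. Its log2 mean was 7.964 ± 0.134 (SD, n = 2) in the anterior and 7.997 ± 0.135 (SD, n = 2) in the posterior lobe, a difference of 0.03 (interval -0.30 to 0.36).

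Smo, the signal transducer that Ptch1 holds inactive, was measured by 3 probes, and they did not give the same picture. Probe ILMN_2741611 read 203.1 and 300.6 in anterior replicates 1 and 2, and 142.1 and 138.2 in posterior replicates 1 and 2. Both posterior values lay below both anterior ones, and anterior replicate 2 stood highest. On the log2 scale the mean was 7.95 ± 0.57 (SD, n = 2) in the anterior and 7.11 ± 0.04 (SD, n = 2) in the posterior lobe, a level 1.79-fold lower in the posterior lobe. The log2 difference was -0.84 (SE 0.26, interval -1.46 to -0.21, unadjusted p = 0.0173, limma adjusted p = 0.386). Probe ILMN_2741614 read 272.6 and 395.4 in the anterior samples, and 187.9 and 188.2 in the posterior samples, with anterior replicate 2 again the highest. Its log2 difference was -0.80 (SE 0.25, interval -1.43 to -0.18, unadjusted p = 0.0198, limma adjusted p = 0.400), a level 1.75-fold lower in the posterior lobe. Of all tested probes, 89 had a difference at or below that of ILMN_2741611 (0.410%), and 101 at or below that of ILMN_2741614 (0.465%). In either direction, 244 (1.12%) and 264 (1.22%) had a difference at least as large in size. These counts include the Smo probes themselves.

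The third Smo probe, ILMN_2986978, read 1713.4 and 1710.3 in the anterior samples and 1625.5 and 1752.5 in the posterior samples. These groups overlapped, and the difference of -0.01 on the log2 scale (SE 0.10) had an interval of -0.26 to 0.24 (limma adjusted p = 0.983), which does not hold the differences of the other Smo probes. Whether the probes differ from each other was not tested, and their sequences were not used here, so the transcripts each probe reads are not given. Both posterior values of ILMN_2741611 lay near the dimmest detected probes of their arrays, which read 134.2 and 134.4. The standard error over the beads, which covers the reading of an array and not the spread between samples, was for ILMN_2741611 10.9 and 14.2 intensity units on the anterior arrays and 7.1 on each posterior array.

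**Figure D2:**
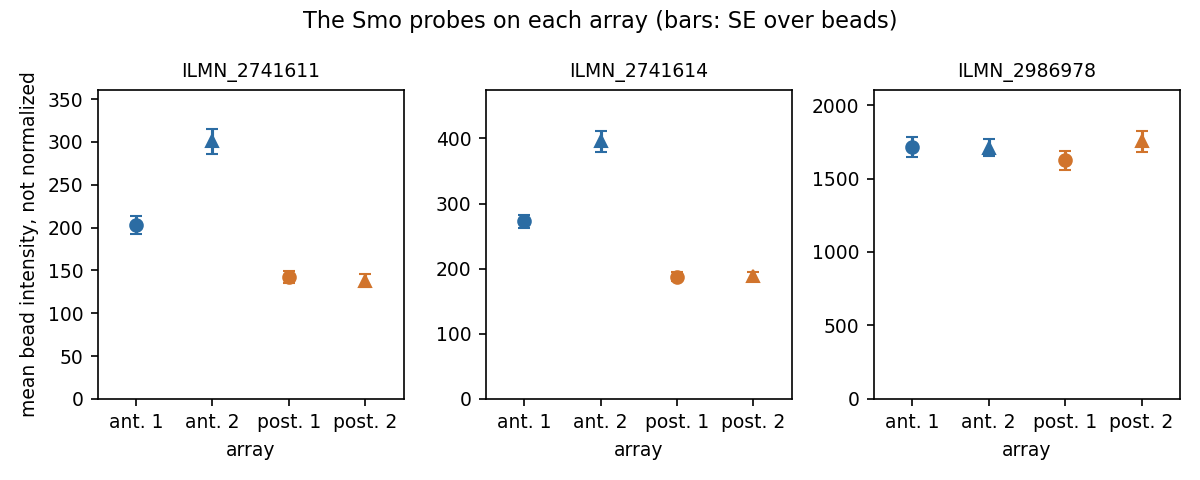
Mean bead intensity, not normalized, of the 3 Smo probes on the 4 arrays, with 1 panel per probe on its own axis from 0 and bars for the SE over beads. The posterior values of ILMN_2741611 (142.1 and 138.2) and ILMN_2741614 (187.9 and 188.2) lie below the anterior ones, and those of ILMN_2986978 lie on both sides of them.

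The size of the lower Smo signal rested largely on anterior replicate 2. Without it the difference was -0.43 for ILMN_2741611 (unadjusted p = 0.00829, limma adjusted p = 0.206) and -0.41 for ILMN_2741614 (unadjusted p = 0.0131, limma adjusted p = 0.253). Without anterior replicate 1 the differences were -1.229 and -1.197. Without posterior replicate 1 the differences were -0.87 and -0.82 (limma unadjusted p = 0.0554 and 0.0699), and without posterior replicate 2 they were -0.82 and -0.80 (limma unadjusted p = 0.0726 and 0.0765), so that neither probe met the criterion. These fits take the single sample left in a lobe to vary as the pair of the other lobe does.

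Markers of other cell types are given beside this Smo result. All 21 tested probes of the oligodendrocyte list were lower in the posterior lobe, with a median log2 difference of -1.02. By the criterion 18 were lower, beside 5% of all tested probes. At an adjusted p of 0.05 in limma 5 passed, beside 0.106% of all. Their summed intensity was 112087 and 97023.2 in the anterior samples and 68268.7 and 66035.1 in the posterior samples, and none was at 0. Of the choroid plexus list, Clic6, a chloride channel protein, read 503.9 and 699.8 in the anterior and 268.1 and 372.2 in the posterior samples (log2 difference -0.89). Clic6 met the criterion, but not without posterior replicate 1 (-0.66). Ttr, the transthyretin gene that marks choroid plexus epithelium, read 599.9 and 9501.9 in the anterior and 325.9 and 3777.6 in the posterior samples. Its lobes overlapped, and it was high in replicate 2 of each lobe. The summed intensity of the list covers only its 2 tested probes, those of Clic6 and Ttr. It went from 1103.8 to 10201.7 in the anterior and from 594.0 to 4149.8 in the posterior lobe. The part of these cell types in the Smo values was not tested.

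The Gli factors carry the signal to the nucleus. Gli2, the main activator, was measured by 2 probes. ILMN_2522863 read 6106.8 and 5111.8 in the anterior samples and 5857.4 and 5444.6 in the posterior samples, and the difference of 0.02 on the log2 scale had an interval of -0.18 to 0.22. ILMN_2668750 read 270.4 and 259.9 in the anterior and 256.9 and 289.8 in the posterior samples, with a difference of 0.05 and an interval of -0.28 to 0.38. Both Gli2 probes thus overlapped between the lobes.

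Gli3, which acts largely as a repressor, had 1 probe above background. ILMN_2449396 read 1829.9 and 1574.3 in the anterior samples and 1826.5 and 2071.3 in the posterior samples. After normalization both posterior values lay above both anterior ones, at 10.93 ± 0.08 against 10.72 ± 0.01 on the log2 scale (SD, n = 2 each). The difference of 0.21 (SE 0.09, interval -0.01 to 0.43, unadjusted p = 0.0562, limma adjusted p = 0.512) did not meet the criterion. The other Gli3 probe, ILMN_1215183, read 103.5 to 111.1 with a detection p of 0.098 to 0.186 and was not tested. Gli1, the factor whose own transcription is the usual readout of the pathway, has 1 probe, ILMN_2774992, at 68.5 and 67.3 in the anterior and 64.2 and 65.6 in the posterior samples. Its detection p was 0.506 to 0.808, so it was not above background on any array and gives no comparison of the lobes.

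Ccnd1, the cyclin that takes progenitors through the first phase of the cell cycle, was measured by 3 probes. ILMN_2669793 read 2145.9 and 2098.4 in the anterior samples, and 1824.0 and 1664.4 in the posterior samples. Both posterior values were lower, by a mean of -0.27 on the log2 scale (SE 0.11, interval -0.55 to 0.01, unadjusted p = 0.0569, limma adjusted p = 0.513), and the probe did not meet the criterion. It met it without anterior replicate 1 (-0.361, limma unadjusted p = 0.00637, adjusted p = 0.0518), and leaving out each sample in turn gave -0.373 to -0.166. ILMN_1221503 read 6212.6 and 4806.0 in the anterior and 5203.3 and 5947.3 in the posterior samples, with a difference of 0.03 and an interval of -0.18 to 0.24. ILMN_2601471 read 5014.0 and 3706.5 in the anterior and 4633.9 and 4622.5 in the posterior samples, with a difference of 0.11 and an interval of -0.12 to 0.34. Anterior replicate 2 was the lowest array for both of these, and their lobes overlapped. Mycn, the transcription factor that acts downstream of Shh in dividing progenitors, has 1 probe, ILMN_2619172, at 63.0 and 63.9 in the anterior and 78.8 and 62.7 in the posterior samples. It was not detected on any array (detection p 0.350 to 0.902), which does not show that its RNA was absent.

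**Figure D3:**
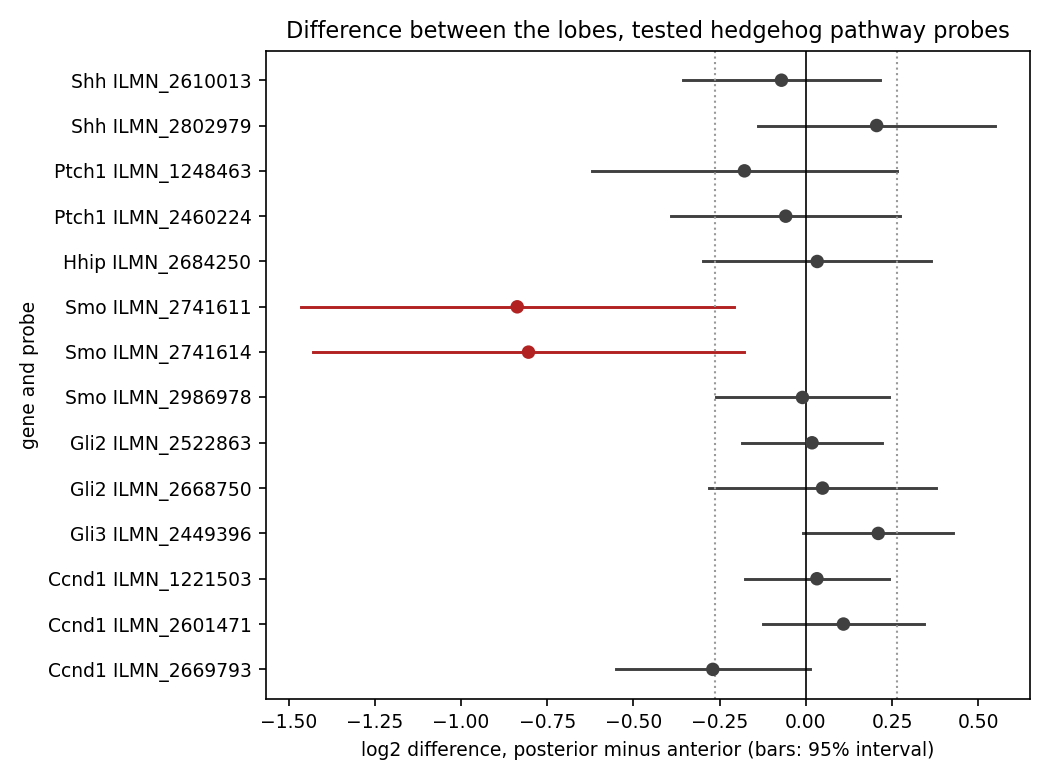
Difference of the lobes, posterior minus anterior on the log2 scale, with its 95% confidence interval for each of the 14 tested member probes. Red points met the criterion of the study with the p of limma, though not with that of the methods' t-test. Dotted lines mark a fold change of 1.2, and the intervals of all probes but those of the 2 red Smo probes cross 0.

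Among the 14 tested member probes, 6 had lobes that did not overlap, 4 with the posterior lobe lower and 2 with it higher. Of all tested probes 42.6% did not overlap, 21.5% with the posterior lobe lower and 21.1% with it higher, so this share of the members lay near that of all probes. The half-width of the 95% intervals ran from 0.20 to 0.63 on the log2 scale, which bounds the precision of each probe. The standard error over beads was 2.17% to 7.54% of the intensity on the member probes, with 21 to 71 beads each.

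The other genes of the pathway were taken from a list of 55 symbols, of which 54 have a probe. Of its 95 probes 60, of 42 genes, were tested. Only 2 of these met the criterion, 1 higher and 1 lower in the posterior lobe, beside 8.29% of all tested probes. None passed an adjusted p of 0.05 in limma, and 4 had an unadjusted p under 0.05. The median log2 difference was -0.028, with 25 probes higher and 35 lower. The ligands Dhh and Ihh, the co-receptors Boc and Gas1 and 8 more genes had no probe above background on 2 arrays.

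By role, the ligands and their release had 7 tested probes, 6 of them higher in sign and none past the criterion (median 0.13). Of the 6 probes of receptors and co-receptors, 4 were higher in sign and 1 met the criterion (median 0.09). This probe was of Gpc3, a glypican of the cell surface that binds hedgehog ligand. ILMN_2832979 read 779.1 and 401.4 in the anterior samples and 1349.7 and 820.7 in the posterior samples. Both posterior values were above both anterior ones, with a log2 difference of 0.92 (SE 0.32, unadjusted p = 0.029, limma adjusted p = 0.435), and without posterior replicate 1 the difference was 0.54 and did not meet the criterion (unadjusted p = 0.165, limma). The second tested Gpc3 probe, ILMN_2719973, read 356.4 and 142.7 in the anterior and 1241.2 and 268.5 in the posterior samples, so its lobes overlapped, and its difference of 1.37 (SE 0.73, limma adjusted p = 0.581) did not meet the criterion. This value ran from 0.248 without posterior replicate 1 to 2.494 without posterior replicate 2, and the probe met the criterion in the latter fit, without anterior replicate 1 (1.89) and with no normalization (1.36), with limma unadjusted p = 0.00295, 0.00885 and 0.0182. Of the 11 tested probes of meningeal fibroblast markers, 10 were also higher in sign in the posterior lobe. By the criterion 7 were higher, beside 3.3% of all tested probes, and 2 passed an adjusted p of 0.05 in limma. Their summed intensity was 7973.4 and 7386.9 in the anterior and 12409 and 14077.6 in the posterior samples. It was highest in posterior replicate 2, while both Gpc3 probes were higher in replicate 1 of each lobe. None of these sums was at 0, and the part of these cells in the Gpc3 values was not tested.

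Transduction genes, from cilium motors to the kinases that mark Gli proteins, had 31 tested probes, 23 of them lower in sign and none past the criterion (median -0.08). The inhibitor Sufu, which holds Gli proteins in the cytoplasm, had 2 tested probes, with differences of 0.02 and 0.07. Kif3a, a motor subunit needed to build cilia, read 1441.4 and 1481.8 in the anterior and 1175.0 and 1212.3 in the posterior samples on probe ILMN_2621148, with no overlap. Its difference of -0.27 (limma adjusted p = 0.513) did not meet the criterion. It was -0.39 without anterior replicate 1, where it met the criterion, and -0.15 without anterior replicate 2. The other tested Kif3a probe gave -0.09.

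Target genes had 16 tested probes, 7 higher and 9 lower in sign, and 1 met the criterion (median -0.02). This was probe ILMN_2604282 of Sfrp1, a secreted Wnt inhibitor that hedgehog signals induce. It read 1025.5 and 1053.7 in the anterior samples and 765.0 and 807.9 in the posterior samples, with no overlap. The log2 difference was -0.38 (SE 0.12, unadjusted p = 0.022, limma adjusted p = 0.413). It no longer met the criterion without anterior replicate 2 (-0.25), posterior replicate 1 (-0.37) or posterior replicate 2 (-0.39). The other Sfrp1 probe had a difference of -0.16, and of -0.293 without anterior replicate 1, where it met the criterion (limma unadjusted p = 0.0116).

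Ccnd2, the cyclin that acts beside Ccnd1 in granule progenitors, had 3 tested probes, with differences of 0.47, 0.36 and 0.35. On ILMN_1225932 it read 1791.7 and 1007.0 in the anterior samples and 1872.6 and 1824.3 in the posterior samples. Anterior replicate 2 was the lowest array on all 3 probes. None met the criterion in the main fit, with all 4 arrays, quantile normalization and the filter on dim probes. All 3 met it when the replicate number was added to that fit as a block. Without anterior replicate 2 the differences of ILMN_1225932, ILMN_2700166 and ILMN_2700168 were 0.15, -0.10 and -0.16. Without anterior replicate 1 these differences were 0.79, 0.82 and 0.86, and the probes met the criterion there. Without posterior replicate 1 those of ILMN_2700166 and ILMN_2700168 were 0.029 and 0.101, and without posterior replicate 2 they were 0.68 and 0.60, with no call. ILMN_1225932 also met the criterion with a 75th percentile shift (limma unadjusted p = 0.0447) and with no filter on dim probes (limma unadjusted p = 0.0414).

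**Figure D4:**
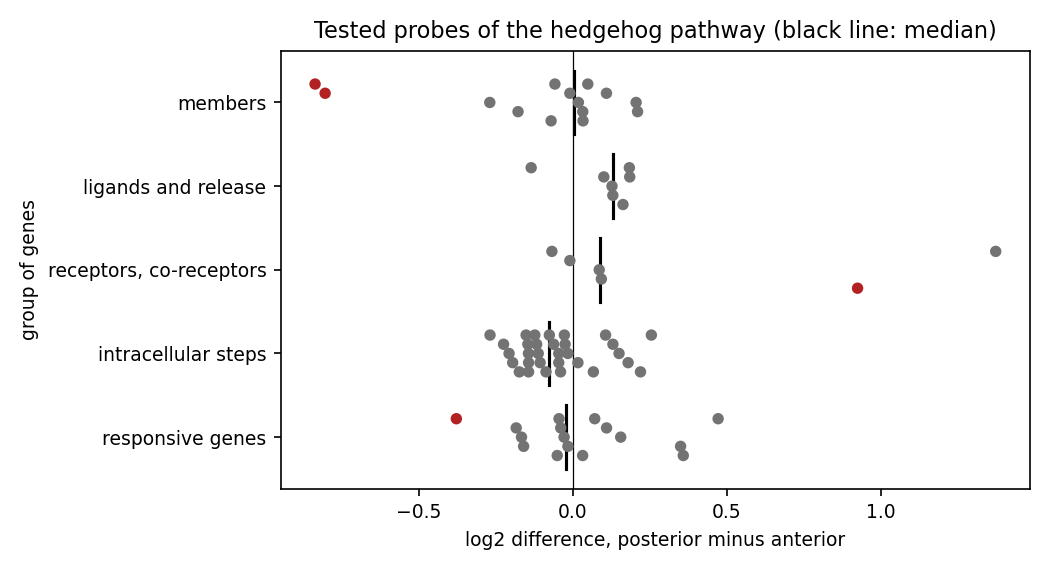
Difference of the lobes, posterior minus anterior on the log2 scale, of every tested probe of the members and of the other pathway genes by role (intracellular steps are the transduction genes and responsive genes the targets), with a black line at each median and red points for probes past the criterion. The 60 probes of the other genes lie between -0.38 and 1.37, with medians from -0.08 for transduction genes to 0.13 for ligands and their release.

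The lists of granule cells and of dividing cells were set beside the members, since both Shh and its targets act there. None of the 9 tested probes of granule progenitor markers met the criterion (median 0.12), and 8, all but that of Barhl1, were higher in sign in the posterior lobe. Mki67 and Top2a belong both to this list and to the cell cycle list, so the lists are not separate observations. Of the 28 tested probes of the cell cycle list, 27 were higher in sign, 18 had posterior values above both anterior values, beside 21.1% of all tested probes, and 4 met the criterion, beside 3.3% of all (median 0.16). None passed an adjusted p of 0.05 in limma. The 4 probes were of Aurka and Bub1b, which act in mitosis, of Cdc2a, the mitotic kinase, and of Pcna, the sliding clamp of replication, with differences of 0.27, 0.27, 0.31 and 0.33. All 4 missed the criterion without posterior replicate 2, at 0.20, 0.19, 0.22 and 0.27, and when the arrays were not normalized, at 0.26, 0.25, 0.30 and 0.33, and by the test of the methods. Bub1b also missed it with the 75th percentile shift, with no filter and with detection on all 4 arrays, and without anterior replicate 1 (0.24) or posterior replicate 1 (0.35), Cdc2a without anterior replicate 1 (0.25), and Pcna without anterior replicate 2 (0.25) or posterior replicate 1 (0.39). Of the neurons, postmitotic granule neuron markers had 12 tested probes, of which 10 were lower in sign (median -0.08). By the criterion 1 was higher and 3 were lower, beside 3.3% and 5% of all tested probes. In 6 of them both posterior values lay below both anterior ones, beside 21.5% of all. Markers of Purkinje cells, the source of Shh, had 17 tested probes, of which 1 was higher by the criterion (median -0.09). None of the 14 probes of Bergmann glia and astrocyte markers met the criterion (median -0.03). The mean deviation of the members from their own average over the 4 arrays was -0.02 and 0.13 in anterior replicates 1 and 2. It was -0.06 and -0.05 in the posterior replicates. The value of 0.13 rested largely on the Smo probes ILMN_2741611 and ILMN_2741614. Their log2 values in anterior replicate 2 were 8.35 and 8.75, beside means of 7.53 and 7.95 over the 4 arrays.

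**Figure D5:**
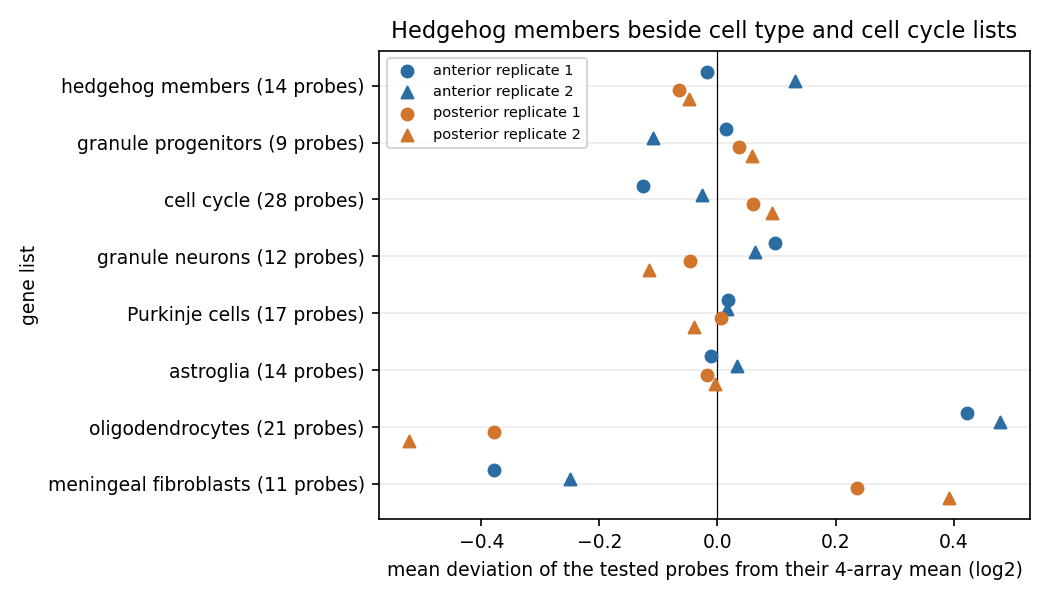
Mean deviation of the tested probes of each gene list from their own mean over the 4 arrays, on the log2 scale, with 1 point per array. The hedgehog members lie between -0.06 and 0.13 and the granule progenitor list between -0.11 and 0.06. The member value of 0.13, in anterior replicate 2, rests largely on Smo probes ILMN_2741611 and ILMN_2741614. The granule neuron list lies at 0.10 and 0.06 in the anterior and at -0.05 and -0.12 in the posterior samples. The oligodendrocyte list lies at 0.42 and 0.48 in the anterior and at -0.38 and -0.52 in the posterior samples.

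The 4 arrays had 21070 to 21574 probes detected, and anterior replicate 2 was the dimmest. Its median intensity was 110.2, beside 121.8 to 129.6 on the other arrays, and its dimmest detected probe read 116.9, beside 134.2 to 139.8. The intensities given above are not normalized for this, while the log2 values are. The SD of the log2 difference between the replicates over all tested probes was 0.318 in the anterior and 0.203 in the posterior pair. The number of arrays limits the precision of every difference given here.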

How the data were processed

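RNA of anterior and posterior cerebellar lobes was hybridized to bead arrays, 2 samples per lobe. The authors deposited, without normalization, the mean bead intensity per probe (GenomeStudio 1.9.0, per the submitters' processing notes), the SD and number of beads, and a detection score, a fraction that is 1 minus the detection p-value. The floor at 1 and the log2 step named in the methods were not applied in the deposited table. Another 16 columns were not used.

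In R 4.3.3 the arrays were quantile normalized, a floor of 1 was set and log2 was taken. The probes detected (p under 0.05) on 2 or more of the 4 arrays entered limma 3.58.1, with differences as posterior minus anterior (lmFit, eBayes with an intensity trend, two-sided, Benjamini-Hochberg over all tested probes). The criterion is that of the study, with the p of limma unless the test of the methods is named. Each probe was kept apart, and no level was compared between probes. The test was tested on simulated data. Arrays were assigned through the sample numbers in the labels.

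The members, the other pathway genes and the marker lists were chosen with earlier results of these data known. Named were all members, other pathway genes past the criterion or among the 2 largest differences each way, and Zic1 and Ttr as the brightest of their marker lists. Atoh1, Barhl1, Clic6, Sufu, Ccnd2, the undetected pathway genes and the 4 cell cycle genes were named beside this rule, after their values were seen. Alternatives covered normalization, background, filter, variance model, the test, pairing, the fold threshold and leaving out each sample.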

Additional observations from a re-analysis of the deposited data

How the results depend on the processing

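The numbers below count probes past the criterion unless an adjusted p is named. The 2 member probes past the criterion, both of Smo, were also 2 without normalization, with a 75th percentile shift, cyclic loess, neqc, no filter, stricter filters, no intensity trend and a 1.5-fold threshold, with differences from -1.28 to -0.77, and 0 by the methods' t-test. Leaving out each sample gave 0 to 5. The other pathway genes went from 2 to 3 without normalization (Gpc3 ILMN_2719973 added), 3 with the 75th percentile shift (Ccnd2 ILMN_1225932 added), 4 with no filter (the same Ccnd2 probe and 1 of Scube3 added), 0 by the methods' t-test, 1 at 1.5-fold and 0 to 16 when a sample was left out. At an adjusted p of 0.05, leaving out a sample gave 0 to 2 member probes and 0 to 10 other pathway probes. Over all probes, the criterion called 1802, and 4677 without anterior replicate 1, 1942 without anterior replicate 2, 766 without posterior replicate 1 and 811 without posterior replicate 2. An adjusted p of 0.05 was passed by 23, 2538, 221, 0 and 0 probes in the same order, and by 0 in the methods' t-test (1763 at an unadjusted p under 0.05). Smo probe ILMN_2986978 turned to 0.012 with the 75th percentile shift. Signs also turned when a sample was left out, with ranges of -0.107 to 0.0895 for this probe, -0.042 to 0.103 and -0.0022 to 0.22 for Ccnd1 (ILMN_1221503, ILMN_2601471), -0.069 to 0.104 and -0.051 to 0.150 for Gli2 (ILMN_2522863, ILMN_2668750), -0.062 to 0.129 for Hhip, -0.414 to 0.060 and -0.24 to 0.12 for Ptch1 (ILMN_1248463, ILMN_2460224), and -0.099 to 0.818 and -0.161 to 0.864 for Ccnd2 (ILMN_2700166, ILMN_2700168). Causes were not tested. Probes near background, such as Gli1 and Mycn, give no difference.

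The lobes share replicate numbers, but with 2 pairs the labels do not say that a number marks a shared animal (correlation of the replicate differences across probes 0.458). With the number as a replicate block the criterion called 3 member probes, Ccnd1 ILMN_2669793 added, and 7 other pathway probes, with Gpc3 ILMN_2719973, all 3 tested Ccnd2 probes (limma unadjusted p = 0.0042, 0.00437 and 0.0206) and Kif3a ILMN_2621148 (limma unadjusted p = 0.0373) added. An adjusted p of 0.05 was then passed by 2 member probes, both of Smo (limma adjusted p = 0.0304 and 0.0343), and by 2 other pathway probes, both of Gpc3. Over all probes the block gave 2818 past the criterion and 588 at an adjusted p of 0.05.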
